A study of Mus musculus with 6 samples.

Results

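The Notch receptors and ligands examined here are 10 mouse genes taken as listed by name: the 4 receptors Notch1, Notch2, Notch3 and Notch4, the Delta-like ligands Dll1, Dll3 and Dll4, the Jagged ligands Jag1 and Jag2, and Dner. All 20 probe sets that the array annotation assigns to 1 of these genes alone were read, of 34958 such probe sets in all, and the 10 genes are among 18194 on the array. The measurement was gene expression on 6 Affymetrix mouse whole-genome arrays, given as log2 values after GCRMA, a background correction and normalization of Affymetrix probes.

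The study set a neurosphere culture that its labels call reprogrammed against another neural crest culture, to compare their gene expression profiles. The rNCSC group held 3 arrays of neurospheres (floating spheres of dividing cells) from dorsal root ganglia of C57BL/6J embryos at embryonic day 12.5. The 3 pNCSC arrays held RNA of neurospheres grown from palate tissue of 3 to 5 adult C57BL/6J mice, aged 6 to 8 weeks. Both were sampled at passage 3 in serum-free DMEM/F12 with EGF at 20 ng/ml, bFGF at 20 or 40 ng/ml, 0.5 U/ml of heparin, glutamine, antibiotics and the supplements N2 (1%) and B27 (1% or 3%), and the labels do not say which culture had which bFGF and B27 level. Tissue of origin, donor age and the reprogramming that the labels name differ together between the groups and cannot be told apart. The bFGF and B27 levels may differ with them. Both groups are cultured spheres with no uncultured tissue beside them. Whether replicate arrays stand for separate cultures or animals is not in the labels, so the p-values speak only of the spread between these samples, which may be technical.

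Notch receptors are single-pass membrane proteins that are activated by ligands on neighbouring cells. Ligand binding exposes the receptor to ADAM proteases and then to the gamma-secretase complex, and the freed intracellular domain enters the nucleus and, with the DNA-binding protein RBPJ, switches on genes of the Hes and Hey families. In the developing nervous system the pathway is known for keeping progenitors undifferentiated, and in the peripheral lineage of the neural crest for favouring glia over neurons. Dll1, Dll4, Jag1 and Jag2 are activating ligands, Dll3 is a divergent Delta-like protein known as an inhibitor within the same cell, and DNER is a neuronal membrane protein with EGF repeats that lacks the DSL domain of the classical ligands.

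The promoter sequences of all 10 genes were matched by symbol in a RefSeq table (GRCm38.p6), in 11 windows of 300 bases from 250 before to 50 after each annotated start, Dll1 having more than 1 start. Those of 5 genes are shown for the 250 bases before the start, 5′ to 3′ along the gene's strand: the pair of receptors that differed in opposite directions, and the 3 ligands whose window holds the E-box CAGCTG, a binding motif of basic helix-loop-helix proteins, printed in capitals.
Notch1 (chr2:26503823-26504072, minus strand): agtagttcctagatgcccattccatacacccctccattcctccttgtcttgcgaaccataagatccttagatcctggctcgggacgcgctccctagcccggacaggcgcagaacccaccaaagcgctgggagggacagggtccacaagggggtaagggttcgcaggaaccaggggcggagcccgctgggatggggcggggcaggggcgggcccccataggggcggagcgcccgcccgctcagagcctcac
Notch2 (chr3:98013288-98013537, plus strand): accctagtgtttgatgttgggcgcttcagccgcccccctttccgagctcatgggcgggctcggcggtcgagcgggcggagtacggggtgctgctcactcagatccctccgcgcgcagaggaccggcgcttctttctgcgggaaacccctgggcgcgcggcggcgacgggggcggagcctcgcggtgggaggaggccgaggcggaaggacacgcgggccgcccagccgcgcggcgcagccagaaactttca
Dll1 (chr17:15376933-15377182, minus strand): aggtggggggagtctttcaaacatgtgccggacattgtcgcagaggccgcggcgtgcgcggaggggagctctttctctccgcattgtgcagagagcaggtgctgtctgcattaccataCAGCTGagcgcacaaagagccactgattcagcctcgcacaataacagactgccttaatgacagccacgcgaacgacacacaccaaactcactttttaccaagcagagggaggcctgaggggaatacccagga
Dll3 (chr7:28301786-28302035, minus strand): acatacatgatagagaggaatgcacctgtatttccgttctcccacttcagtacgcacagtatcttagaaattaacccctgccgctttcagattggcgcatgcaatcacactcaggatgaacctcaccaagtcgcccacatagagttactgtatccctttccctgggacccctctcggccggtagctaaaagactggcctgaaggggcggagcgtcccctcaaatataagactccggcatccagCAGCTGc
Jag1 (chr2:137116521-137116770, minus strand): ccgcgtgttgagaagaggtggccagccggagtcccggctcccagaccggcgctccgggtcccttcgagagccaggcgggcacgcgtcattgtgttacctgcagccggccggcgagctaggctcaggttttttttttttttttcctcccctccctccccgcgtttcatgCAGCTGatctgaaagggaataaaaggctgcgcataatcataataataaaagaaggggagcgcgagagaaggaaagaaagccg
The E-box was found in 3 of the 11 windows, and 16.3% of 32851 promoter windows of the same length hold it. Its last base lies 127 bases before the start in Dll1, 77 in Jag1 and 2 in Dll3. The motif TGGGAA, the core recognised by RBPJ, was searched on both strands and was in 0 of the 11 windows, against 25.6% of all windows. The E-box reads the same on both strands, and the 2 motifs overlapped in 62 of all windows. The Notch2 window had 41 CpG dinucleotides, more than 96.5% of all windows, and the Notch1 window 23, where the median over all windows was 7. These are matches of letters only, and the E-box was chosen after expression values had been seen.

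Of the 10 genes, 8 reached a log2 value of 4 on at least 3 arrays and were tested, and Dll4 and Jag2 were too dim. Notch1, Dll1, Dll3 and Dner were higher in rNCSC and Notch2 was higher in pNCSC. Notch3, Notch4 and Jag1 did not pass the test. Each gene was represented by its brightest probe set and tested with limma across all genes, with a Benjamini-Hochberg adjusted p under 0.05 as the threshold. The cultures differ widely: of 11722 genes tested 73.3% were called, 40.2% as higher and 33.1% as lower in rNCSC, so the 5 called of 8 tested members is a share near that of all genes. In those 5 members the cultures had no overlapping values, which was so for 78.2% of all genes. Dll3, under 4 on all pNCSC arrays, entered the test through rNCSC alone. The filter thus fixed its direction and its lack of overlap. The median log2 difference of the 8 members was 1.02 and the median size of the difference 1.48, against 0.12 and 0.94 over all genes tested. In the plot of every probe set by array, the 5 called genes stand apart between cultures at the filled symbols.

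**Figure D1:**
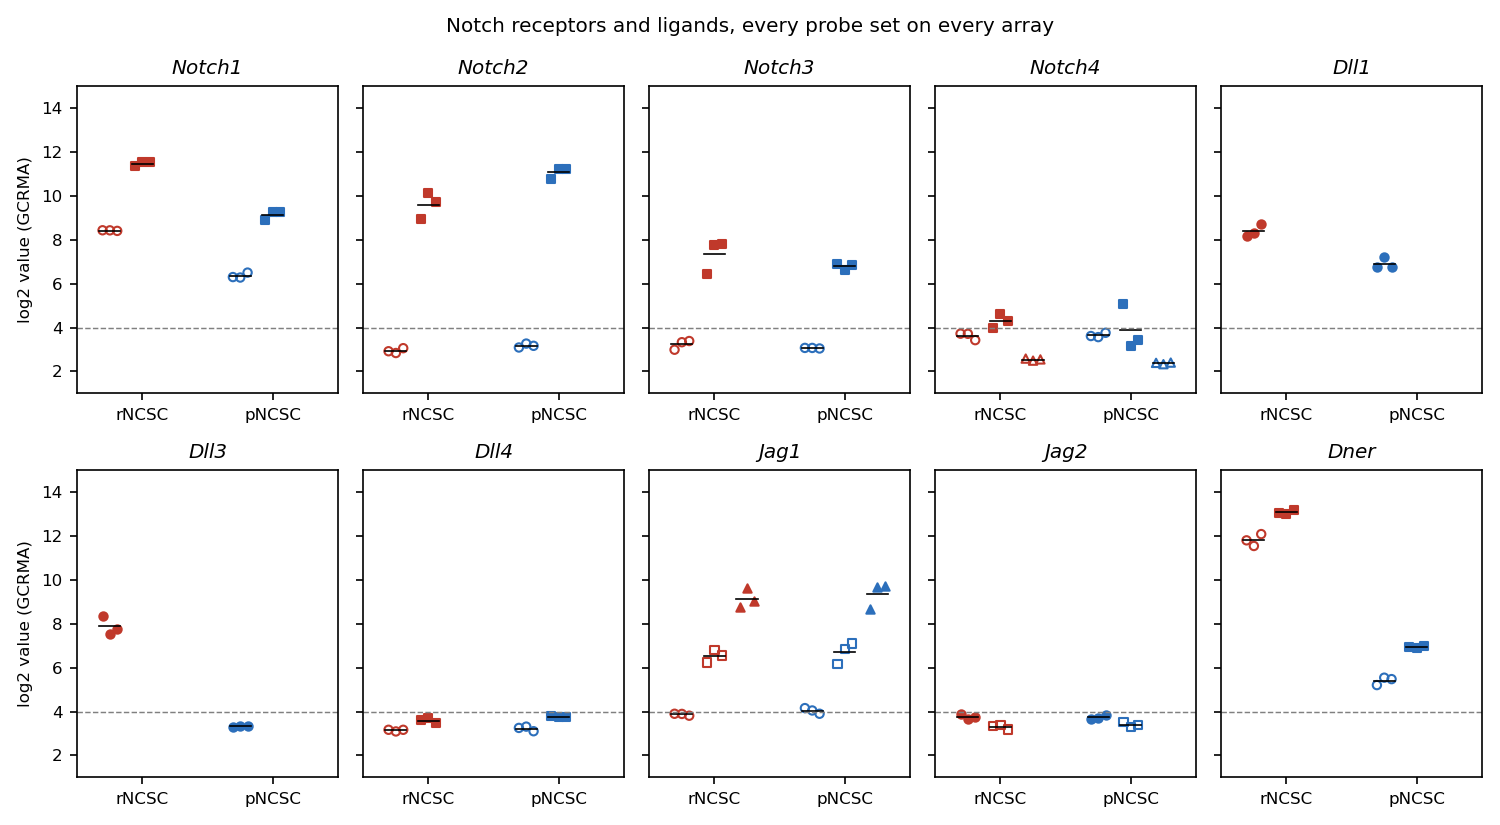
Log2 values (y axis) of all 20 probe sets of the 10 genes, 1 panel per gene, on the 3 rNCSC (red) and 3 pNCSC (blue) arrays. Each marker shape is a probe set, filled for the one used for the gene, and black lines are group means. The dashed line at 4 marks the level under which a value was treated as dim: Dll3 lies under it in pNCSC alone, and Dll4 and Jag2 on all arrays.

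Among the receptors, Notch1 and Notch2 changed in opposite directions. Notch1, the receptor best known in neural progenitors, had log2 values of 11.36, 11.52 and 11.52 on rNCSC replicates 1, 2 and 3 and of 8.92, 9.26 and 9.25 on the pNCSC replicates. All rNCSC arrays lay above all pNCSC arrays, and Notch1 was well above the dim level in both cultures. The group means were 11.46 ± 0.09 (SD, n = 3) and 9.14 ± 0.19, a 5.00-fold difference (log2 difference 2.32, SE 0.14, limma adjusted p = 1.0e-05). A further Notch1 probe set read 8.43, 8.43 and 8.40 in rNCSC and 6.30, 6.28 and 6.50 in pNCSC, a 4.17-fold difference (limma adjusted p = 5.7e-06 in the fit of all probe sets).

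Notch2, a widely expressed receptor, had values of 8.95, 10.11 and 9.71 in rNCSC and of 10.75, 11.23 and 11.22 in pNCSC. The highest rNCSC array stayed below the lowest pNCSC array, and the rNCSC arrays were the more scattered. Means of 9.59 ± 0.59 and 11.07 ± 0.28 gave a 2.79-fold higher value in pNCSC (log2 difference -1.48, SE 0.31, limma adjusted p = 0.0043). The other Notch2 probe set was between 2.84 and 3.27 on all 6 arrays and was too dim to test. Averaged with it, Notch2 was 1.81-fold higher in pNCSC (limma adjusted p = 0.0037).

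Notch3, a receptor known from vascular mural cells, had values of 6.45, 7.78 and 7.80 in rNCSC and of 6.89, 6.64 and 6.83 in pNCSC. The pNCSC arrays lay close together, while rNCSC replicate 1 was below them and replicates 2 and 3 above. The log2 difference of 0.56 had a 95% interval from -0.32 to 1.43 (limma adjusted p = 0.21), which holds both no difference and a 2.70-fold higher value in rNCSC. Without rNCSC replicate 1 the difference was 1.00 and passed the test (limma adjusted p = 0.0016). The Notch3 probe set in use carries the _s_at ending, which Affymetrix gives to probe sets that match several transcripts, and the gene's other probe set was under 4 on all arrays.

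Beside Notch3, 8 of 10 mural cell markers were under 4 on all rNCSC arrays. Rgs5, Pdgfrb, Abcc9 and Kcnj8 were among them, and could pass the filter only as higher in pNCSC. The rest of the 8, Myh11, Des, Cnn1 and Tagln, were too dim to test. Of these, Myh11 and Cnn1 were under 4 on all pNCSC arrays as well. The 2 markers left, Cspg4 at 8.90, 6.32 and 7.93 and Acta2 at 5.61, 5.62 and 5.40, were above 4 on all rNCSC arrays. The mean log2 value over the mural markers was 3.56 to 3.73 on rNCSC arrays and 7.89 to 7.93 on pNCSC arrays, and 5 of 6 tested markers were higher in pNCSC, Cspg4 being the one not called. The part of mural cells in the Notch3 value was not tested.

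Notch4, an endothelial receptor, was near the dim level throughout. Its brightest probe set read 3.98, 4.61 and 4.32 in rNCSC and 5.08, 3.18 and 3.44 in pNCSC, so that pNCSC replicate 1 was the highest of all and the groups overlapped. The log2 difference was 0.40, with a 95% interval from -0.79 to 1.59 (limma adjusted p = 0.49). With pNCSC replicate 1 left out and the gene kept in the test, the difference was 0.99 (limma adjusted p = 0.0070), between values near 4 in rNCSC and values under 4 in pNCSC. With array weights it was 0.76 (limma adjusted p = 0.042). The other 2 Notch4 probe sets were under 4 on all arrays. Of 10 endothelial markers, all were under 4 on every rNCSC array and 8 on every pNCSC array, Pecam1, Cdh5, Kdr, Tek and Tie1 included. The other 2, Flt1 and Esam, read 8.33 and 4.32 on pNCSC replicate 1, where Notch4 was highest, against 6.96 and 3.70 on replicate 2 and 6.35 and 3.26 on replicate 3. The 8 dim markers did not share this order: 2 were highest on pNCSC replicate 1, 5 on replicate 2 and 1 on replicate 3, all at values under 4. The part of endothelial transcripts in the Notch4 value was not tested.

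**Figure D2:**
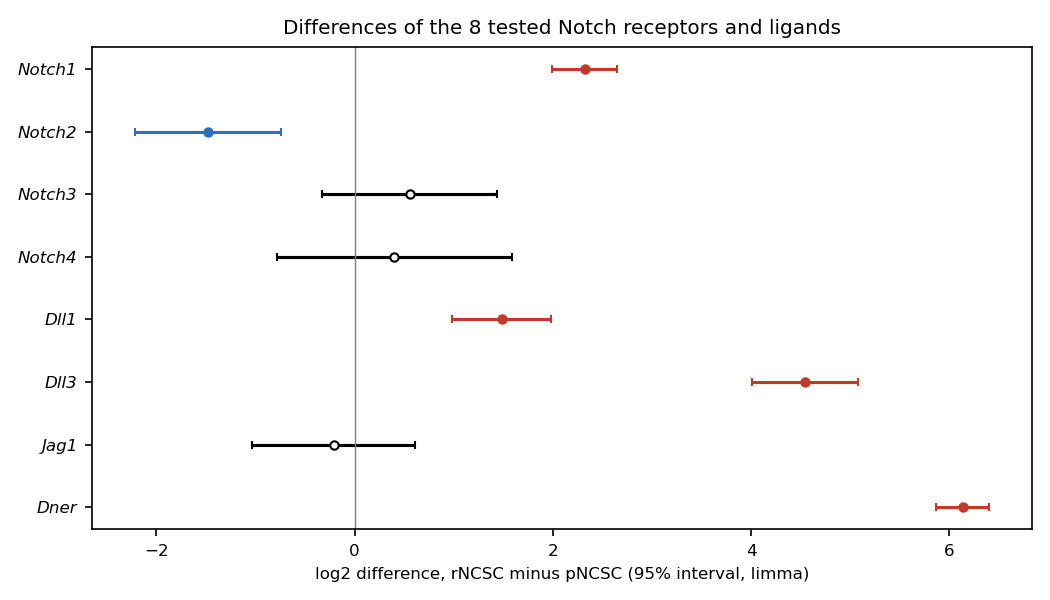
Log2 difference (x axis, rNCSC minus pNCSC) of the 8 tested members with the 95% interval from limma. Red marks genes called higher in rNCSC, blue a gene called higher in pNCSC and open black those not called. The intervals of Notch3, Notch4 and Jag1 span 0, and Dner and Dll3 lie furthest to the right.

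Among the ligands, 3 of 4 tested were higher in rNCSC, and the fourth, Jag1, did not pass the test. Of all genes tested, 40.2% were called higher in rNCSC. Dll1, the Delta-like ligand of neural progenitors that commit to differentiation, had values of 8.15, 8.30 and 8.72 in rNCSC and of 6.74, 7.24 and 6.74 in pNCSC. The groups did not overlap, and the lowest rNCSC array stood above the highest pNCSC array. Means of 8.39 ± 0.29 (SD, n = 3) and 6.91 ± 0.29 gave a 2.80-fold difference (log2 difference 1.48, SE 0.21, limma adjusted p = 0.00065). Its single probe set was above 4 on all 6 arrays, so the transcript was measured in both cultures.

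Dll3 reached 4 in rNCSC alone, so it could pass the filter only as higher in rNCSC. It read 8.37, 7.51 and 7.74 in rNCSC and 3.31, 3.35 and 3.33 in pNCSC, where all arrays were under 4. With the pNCSC arrays set to 4, Dll3 was at least 14.7-fold higher in rNCSC (limma adjusted p = 4.5e-06 for the measured difference of 4.54, SE 0.22). The pNCSC values differed by little, with an SD of 0.02, a smaller SD than this being found in 0.793% of tested genes, and at a level where GCRMA compresses weak signals.

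Jag1, the Jagged ligand found in many mesenchymal and epithelial tissues, was measured in both cultures and did not pass the test. Its brightest probe set read 8.76, 9.61 and 9.05 in rNCSC and 8.67, 9.68 and 9.70 in pNCSC, and the ranges overlapped almost fully. The log2 difference was -0.21 with a 95% interval from -1.04 to 0.61 (limma adjusted p = 0.60), so that a value 2.05-fold higher in pNCSC or 1.53-fold higher in rNCSC lies within the interval. With array weights the difference was -0.58 and just under the threshold (limma adjusted p = 0.049). A further Jag1 probe set read 6.23, 6.81 and 6.56 in rNCSC and 6.15, 6.85 and 7.10 in pNCSC (log2 difference -0.17, limma adjusted p = 0.60 in the fit of all probe sets). Replicate 1 was the lowest array of its group in both probe sets and in both cultures. A remaining Jag1 probe set lay between 3.81 and 4.16 and was too dim to test.

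Dll4 and Jag2 were under 4 on all arrays of both cultures. Dll4, the Delta-like ligand of arterial endothelium, was between 3.09 and 3.82 over its 2 probe sets and all 6 arrays. Jag2 lay between 3.18 and 3.89 over its 2 probe sets. Neither was called when the filter on dim genes was dropped (log2 difference -0.18, limma adjusted p = 0.14 for Dll4, and 0.02, adjusted p = 0.86 for Jag2).

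Dner had the largest difference of the 10 genes. Its brightest probe set read 13.03, 12.98 and 13.20 in rNCSC and 6.93, 6.89 and 6.99 in pNCSC. The arrays of each culture lay close together, and pNCSC was well above the dim level. Means of 13.07 ± 0.11 (SD, n = 3) and 6.94 ± 0.05 gave a 70.2-fold difference (log2 difference 6.13, SE 0.11, limma adjusted p = 8.1e-08). Counted from the gene most in favour of rNCSC, Dner stood at place 107 and Dll3 at place 343 of 11722 by log2 difference. The further Dner probe set read 11.80, 11.54 and 12.08 in rNCSC and 5.21, 5.54 and 5.48 in pNCSC, an 84.3-fold difference (limma adjusted p = 2.8e-07 in the fit of all probe sets). The brightest Dner probe set carries the _x_at ending, given where probes may bind other transcripts, and the further one does not.

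Beside Dner, a list of 10 neuron markers had 6 tested genes, of which 5 were higher in rNCSC and Snap25 was higher in pNCSC. The mean log2 value over the 10 markers was 5.03 to 5.86 on rNCSC arrays and 3.76 to 3.99 on pNCSC arrays, highest on rNCSC replicate 1, which was not the highest array for Dner. The 5 were Elavl4 (10.56 against 2.33 in the group means), Rbfox3 (5.22 against 2.37), Tubb3 (6.64 against 5.36), Nefm (5.08 against 3.71) and Elavl3 (4.90 against 3.11). All but Tubb3 were under 4 on every pNCSC array, so they could pass the filter only as higher in rNCSC. Stmn2, Dcx, Syt1 and Nefl were too dim to test. In bulk samples fewer cells of a type and less RNA per cell cannot be told apart, so the share of neurons behind the Dner value was not tested.

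Marker lists of several cell types differed between the cultures beside these genes. Their counts, and those of the mural and neuron markers, stand beside 40.2% of all genes tested called higher and 33.1% lower in rNCSC. A marker under 4 on all arrays of a culture could pass the filter only as higher in the other culture. CNS neural progenitor markers were higher in rNCSC for 9 of 9 tested genes, with a mean log2 value of 11.3 to 11.7 on rNCSC arrays and 4.10 to 4.33 on pNCSC arrays, beside Notch1, Dll1, Dll3 and Dner. Of the 9, 6 were under 4 on all pNCSC arrays, which fixed their direction. Mesenchymal markers were higher in pNCSC for 10 of 10 tested genes, with means of 11.7 to 12.3 against 3.51 to 3.90, beside Notch2. Of the 10, 7 were under 4 on all rNCSC arrays, which fixed their direction. Neural crest and Schwann cell markers, which the source tissues would carry, were higher in pNCSC for 7 of 7 tested genes, and 5 of the 8 with a probe set were under 4 on all rNCSC arrays. Epithelial and leukocyte markers were each higher in pNCSC for 4 of 5 tested genes, with 8 and 9 of 10 under 4 on all rNCSC arrays. In each of these 2 lists, 4 of 10 markers were under 4 on all arrays of both cultures. They were Krt14, Krt8, Krt19 and Cdh1 of the epithelial list, and Ptprc, Csf1r, Aif1 and Itgam of the leukocyte list. The part of these cell types in the Notch gene values was not tested.

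Over probe sets, 11 of the members' 20 were bright enough to test. In the fit of 21404 probe sets 72.6% were called, 40.5% as higher and 32.1% as lower in rNCSC, and 6 of the members' probe sets were called higher and 1 lower. Where a gene had more than 1 bright probe set, as with Notch1, Jag1 and Dner, the probe sets had the same direction and the same call. Probe sets of a gene share their RNA sample and are not replicates.

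The members differed in how far arrays of the same culture scattered. For comparison, SDs over all tested genes had a median of 0.16 in rNCSC and 0.19 in pNCSC (log2). In rNCSC the SD of Notch3 was 0.77 and that of Notch2 0.59, larger than in 96.4% and 93.9% of tested genes, and replicate 1 was the lowest array for both as well as for Jag1. Dll3 was the reverse, with its highest value on rNCSC replicate 1. In pNCSC the SD of Notch4 was 1.03, larger than in 98.1% of genes, and that of Jag1 0.59, larger than in 93.3%. Notch1 and Dner were steady within both cultures, with SDs between 0.05 and 0.19 at their brightest probe sets. The plot of deviations from the group mean shows these arrays.

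**Figure D3:**
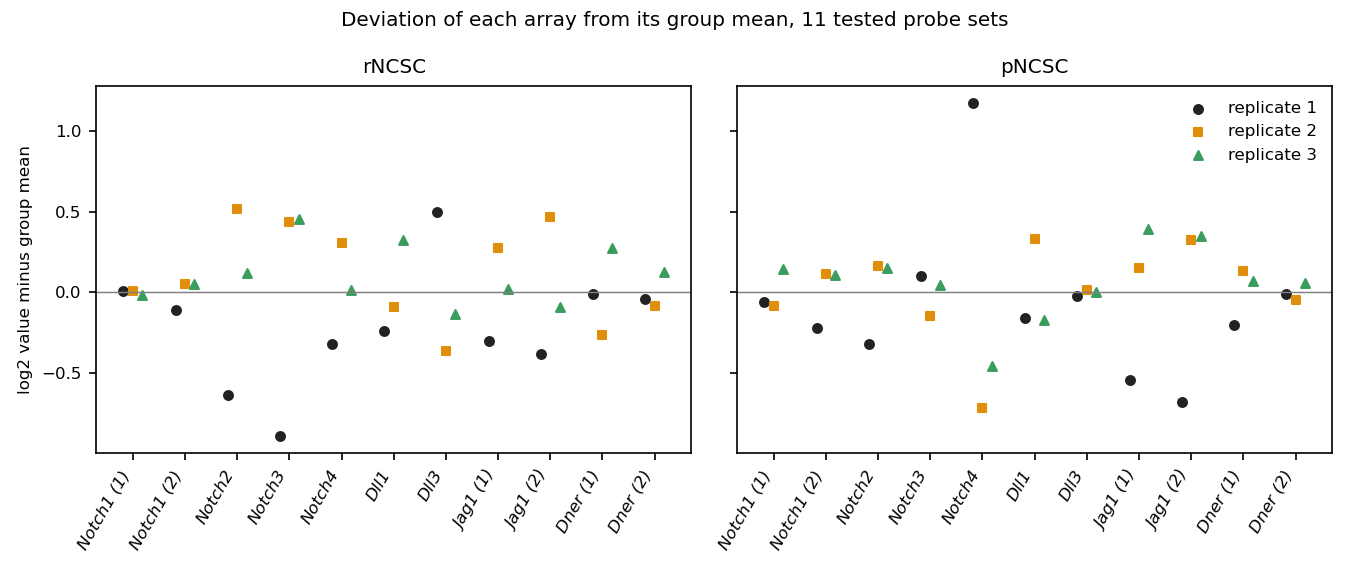
Log2 value of each array minus its group mean (y axis) for the 11 tested probe sets of the members (x axis), with rNCSC on the left and pNCSC on the right. Genes with more than 1 tested probe set are numbered. The rNCSC replicate 1 lies at -0.89 for Notch3 and at -0.64 for Notch2, and pNCSC replicate 1 lies at 1.18 for Notch4.

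Genes with the most similar profile were found by the Euclidean distance between the 6 log2 values of each gene less their own mean, over 11722 tested genes. Symbols of clones and predicted genes, and others that begin with a letter and a digit, were left out of the search. The nearest genes to Notch1 were Tamm41, Nxt1 and Rev3l (distances 0.14, 0.14 and 0.14), and those nearest to Notch2 were Auts2, Ggact and Lxn (0.38, 0.40 and 0.46). For Dll1 they were Pnkd, Wee1 and Bms1 (0.22, 0.23 and 0.25), and for Dll3 Zswim5, Lsamp and the astrocyte water channel gene Aqp4 (0.23, 0.27 and 0.28). Hoxb6, Acsbg1 and Ppargc1a were nearest to Dner (0.24, 0.29 and 0.34). Of the genes that did not pass the test, Notch3 was nearest to Plekhg2, Lrp4 and Shroom4 (0.43, 0.50 and 0.52), Notch4 to Depdc7, Cpxm1 and Fam107b (0.19, 0.48 and 0.54), and Jag1 to Tmem59, Tmod1 and Pdzd2 (0.43, 0.44 and 0.46). The points are 6 arrays in 2 groups.

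A list of 63 other genes of the pathway, grouped by step, was read in the same fit. Of these, 49 were tested, with 19 higher in rNCSC, 16 higher in pNCSC and 14 not called. That is near the shares over all genes tested, 40.2% higher and 33.1% lower in rNCSC. The counts given for each step below are small and stand beside the same shares. With the filter applied again, the 19 fell to 11 without rNCSC replicate 2 and to 9 without rNCSC replicate 3, and were 16 and 14 with the tested genes kept. Another 8 were too dim, and 6 were not analysed here for want of a probe set assigned to them alone. The median log2 difference was -0.09 and the median size 0.98, close to the 0.12 and 0.94 of all genes tested. The plot of the lists gives the tested genes of each step.

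**Figure D4:**
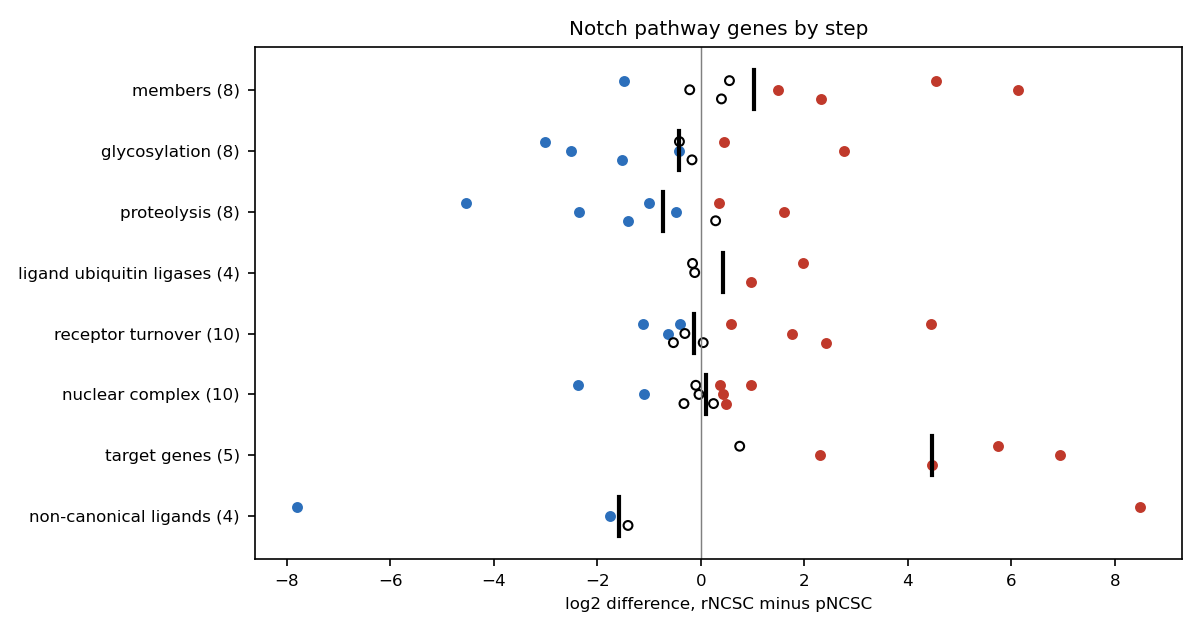
Log2 difference (x axis, rNCSC minus pNCSC) of the tested members and of tested genes on 7 lists of other pathway genes (y axis, number tested in parentheses). Red and blue points passed the test as higher in rNCSC or pNCSC, open points did not, and bars are medians. The median is 4.46 for target genes and -0.73 for proteolysis.

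Glycosyltransferases, which set how strongly receptors respond to each ligand, were higher in rNCSC for 2 of 8 tested genes and higher in pNCSC for 4 (median log2 difference -0.41). Lunatic fringe (Lfng), which favours Delta-like over Jagged ligands for Notch1, read 6.81, 6.87 and 7.06 in rNCSC and 3.97, 4.37 and 4.12 in pNCSC. All pNCSC arrays were near the dim level, and Lfng was at least 6.74-fold higher in rNCSC (limma adjusted p = 6.2e-06), and 3.43-fold with its probe sets averaged. Radical fringe (Rfng) was 1.37-fold higher in rNCSC (limma adjusted p = 0.035), a call lost when any 1 array other than rNCSC replicate 2 was left out (adjusted p from 0.069 to 0.105). Manic fringe (Mfng) was too dim. The xylosyltransferase genes Gxylt2 (at least 6.13-fold), Xxylt1 (5.71-fold) and Gxylt1 (1.33-fold) and the GlcNAc transferase gene Eogt (2.87-fold, and 1.74-fold on probe sets without shared endings) were higher in pNCSC. The Gxylt1 call (limma adjusted p = 0.048) was lost when any 1 array other than rNCSC replicate 2 was left out (adjusted p from 0.080 to 0.135) and with median centring of the arrays (0.075). Pofut1 and Poglut1, which add the first sugars to the EGF repeats, had log2 differences of -0.41 and -0.17 and did not pass the test. A further Pofut1 probe set was called higher in pNCSC. So was Pofut1 with its probe sets averaged (log2 difference -0.35, limma adjusted p = 0.025).

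Genes of receptor cutting, which are proteases and members of the gamma-secretase complex, were higher in pNCSC for 5 of 8 tested and higher in rNCSC for 2 (median log2 difference -0.73). The gamma-secretase gene Psen2 read 4.49, 4.56 and 4.54 in rNCSC and 8.49, 9.54 and 9.18 in pNCSC, and the groups were far apart. It was 23.3-fold higher in pNCSC (log2 difference -4.54, SE 0.26, limma adjusted p = 9.2e-06) on its brightest probe set, which carries the _a_at ending, and 4.55-fold with the gene's probe sets averaged. Furin, which cuts the receptor on its way to the surface, was 5.07-fold, the gamma-secretase gene Ncstn 2.66-fold and Adam17 1.99-fold higher in pNCSC. Adam10, the main protease of ligand-activated Notch, was 1.39-fold higher in pNCSC (limma adjusted p = 0.019), a call lost without pNCSC replicate 3 or rNCSC replicate 1 or 3 (adjusted p from 0.060 to 0.067). Aph1b was 3.05-fold and Aph1a 1.28-fold higher in rNCSC, the latter lost without pNCSC replicate 3 or rNCSC replicate 2 or 3 (adjusted p from 0.055 to 0.088) and on probe sets without shared endings (0.52). Psenen had a log2 difference of 0.29 and did not pass the test.

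Ubiquitin ligases that make ligands active were higher in rNCSC for 2 of 4 tested genes, and the other 2 were not called. Mib1, needed in ligand-sending cells, read 11.27, 11.56 and 11.51 in rNCSC and 10.60, 10.31 and 10.49 in pNCSC, a 1.97-fold difference without overlap (limma adjusted p = 0.00063). Of 2 further bright Mib1 probe sets, 1 was called the same way and 1 was not called. Neurl1b was at least 3.14-fold higher in rNCSC, with all pNCSC arrays under 4. Mib2 and Neurl1a did not pass the test, with log2 differences of -0.16 and -0.12.

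Genes of receptor turnover had 4 of 10 members higher in rNCSC and 3 higher in pNCSC (median log2 difference -0.13). The Deltex gene Dtx4 read 7.94, 9.32 and 8.52 in rNCSC and 4.46, 4.07 and 3.89 in pNCSC, at least 21.3-fold higher in rNCSC (limma adjusted p = 4.1e-05), and 6.29-fold with its probe sets averaged. Dtx1 was at least 2.99-fold higher in rNCSC (2.34-fold with its probe sets averaged), Fbxw7, which marks the freed Notch domain for degradation, 3.41-fold and Itch 1.50-fold. In pNCSC Dtx3l was 2.15-fold, the Notch inhibitor gene Numbl 1.56-fold and Nedd4 1.32-fold higher, the Nedd4 call being lost without rNCSC replicate 1 or pNCSC replicate 2 or 3 (adjusted p from 0.057 to 0.079). Numb, Dtx2 and Dtx3 had log2 differences of -0.53, 0.05 and -0.31 and did not pass the test.

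In the nucleus, the DNA-binding partner Rbpj and the coactivator gene Maml1 were higher in pNCSC. Rbpj read 9.30, 9.12 and 9.59 in rNCSC and 12.03, 11.51 and 11.56 in pNCSC. No arrays overlapped, and Rbpj was 5.16-fold higher in pNCSC (log2 difference -2.37, SE 0.19, limma adjusted p = 4.8e-05). Maml1 was 2.13-fold higher in pNCSC (limma adjusted p = 0.00066). The corepressor gene Ctbp1 was 1.95-fold higher in rNCSC (limma adjusted p = 0.00035). Snw1 (1.39-fold), Spen (1.35-fold) and Kat2b (1.29-fold) were called higher in rNCSC too, but a further Snw1 probe set was called the opposite way. Snw1 did not pass when rNCSC replicate 3 was left out (adjusted p = 0.058). The Spen call was lost when any 1 array other than rNCSC replicate 1 was left out (adjusted p from 0.050 to 0.145), and the Kat2b call when any 1 other than pNCSC replicate 1 was left out (adjusted p from 0.068 to 0.13). Ep300, Crebbp, Sin3a and Hdac1 did not pass the test.

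Of the pathway's target genes, 4 of 5 tested were higher in rNCSC, with a median log2 difference of 4.46, or 3.83 with dim arrays set to 4. Hes5, Hey1 and Nrarp were under 4 on all pNCSC arrays, so they could pass the filter only as higher in rNCSC. Hes7 and Heyl were too dim to test. Nrarp, a Notch-induced feedback inhibitor, read 9.42, 8.76 and 9.29 in rNCSC and 3.31, 3.49 and 3.46 in pNCSC, at least 35.7-fold higher (limma adjusted p = 8.2e-07), and 23.9-fold with its probe sets averaged. Hes5 was at least 68.7-fold, Hey1 at least 14.2-fold and Hey2 4.95-fold higher in rNCSC. For Hes5 the fold was 57.6 with its probe sets averaged, and the log2 difference was 4.76 on probe sets without shared endings. Hes1 read 6.56, 7.25 and 7.76 in rNCSC and 5.81, 7.01 and 6.49 in pNCSC, where the groups overlapped (log2 difference 0.75, SE 0.39, limma adjusted p = 0.13). The Hes1 difference passed without rNCSC replicate 1, at 1.07 (adjusted p = 0.046).

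Among proteins described as non-canonical Notch ligands, 1 of 4 tested genes was higher in rNCSC and 2 were higher in pNCSC. Cntn1, which encodes the neural adhesion molecule contactin 1, was at least 297-fold higher in rNCSC (limma adjusted p = 7.4e-06), and 76.5-fold with its probe sets averaged. Thbs2, which encodes the matrix protein thrombospondin 2, read 3.43, 3.84 and 3.41 in rNCSC and 12.04, 10.97 and 11.09 in pNCSC, at least 165-fold higher in pNCSC (limma adjusted p = 1.6e-06). Egfl7 was 3.38-fold higher in pNCSC (limma adjusted p = 0.00011) and 1.94-fold with its probe sets averaged. The microfibril gene Mfap2 (log2 difference -1.40, limma adjusted p = 0.087) did not pass on its brightest probe set, while a further probe set was called higher in pNCSC.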

How the data were processed

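Biotinylated cRNA from 500 ng of total RNA was hybridised by the authors to Affymetrix arrays, per the labels' protocols. Log2 values of 45101 probe sets were deposited, made with GCRMA per the submitters' processing notes, with no version or settings given. The log2 scale was taken from the range (1.22 to 15.58) and from array medians of 4.01 to 4.04. Such normalization gives all arrays like distributions and compresses weak values towards a floor, and the small number of arrays limits precision. Over all probe sets, Pearson's r was 0.988 to 0.996 within groups and 0.833 to 0.844 between them.

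Samples were grouped by title. Probe sets were named by the platform annotation: 34958 carried 1 symbol and were used, 932 carried several, and 9211 have no name here. The brightest probe set by mean stood for a gene. Features had to reach 4 on at least 3 arrays and are otherwise called dim. A feature under 4 on all arrays of a group could thus pass only as higher in the other group, without overlap. The test was limma 3.58.1 in R 4.3.3 (lmFit, eBayes), two-sided, without covariates, with Benjamini-Hochberg adjustment over all features. Differences are rNCSC minus pNCSC. Where an array of the lower group was under 4 it was set to 4 and the fold given as a lower bound. Such a bound holds for the probe set used, and other probe sets of the gene can give a smaller fold. With 3 arrays a group, exact permutation could reach no p below 0.1. Tested on simulated data with 11722 genes, the fit found 5 of 67 genes shifted by 0.5 (log2), 34 of 67 shifted by 1 and 56 of 66 shifted by 2, and wrongly called 3 of 11522 others. Only these few genes were shifted in the simulation, whereas 73.3% of genes were called in the data. The adjusted threshold is looser there, so the simulated shares do not give those of the fit to the data.

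Named were the members with every probe set and, of each pathway list, up to 3 called genes per direction, and more where 5 or fewer were counted. The cell type markers, named after their values were seen, further pathway genes that were not called, and the E-box fall outside that rule. The members and lists were chosen with earlier results of these data known. Replicate numbers are shared by the groups, but deviations of same-numbered arrays correlated at 0.04, -0.04 and -0.03, so they do not pair the samples.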

Additional observations from a re-analysis of the deposited data

How the results depend on the processing

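The 5 calls among the members (Notch1, Notch2, Dll1, Dll3 and Dner) kept their direction and stayed under 0.05 in every alternative in which the gene was tested, with adjusted p up to 0.00017, 0.019, 0.0039, 9.0e-05 and 9.0e-06 in limma. Alternatives covered the filter, the choice of probe set, normalization, variance models, array weights, the replicate block and leaving out each array, and 0 of 175 values of the 8 members turned a called direction. Dll3 left the test where the filter was applied again without an rNCSC array. The limits of these data are the 3 arrays per group and GCRMA's compression of weak values. Values under 4 were treated as dim, and differences among them are uncertain. With a floor of 3 in place of 4, no Dll3 array was under the floor and the fold was 23.3.

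With array weights Jag1 was called higher in pNCSC (log2 difference -0.58, adjusted p = 0.049), so 2 members and 2 of their probe sets were called higher in pNCSC, and Notch4 was called higher in rNCSC (adjusted p = 0.042). With the replicate block the counts of members stayed at 4 and 1, those of their probe sets at 6 and 1, and those of other pathway genes were 17 and 15 against 19 and 16, where Adam10, Aph1a, Gxylt1, Kat2b and Spen lost the call (adjusted p from 0.058 to 0.096) and Hes1 and Mfap2 gained one (0.034 and 0.016). Leaving out 1 array gave 3 to 4 members higher in rNCSC and 1 in pNCSC, 5 to 6 and 1 of their probe sets, 9 to 17 and 12 to 16 other pathway genes, 3642 to 4655 and 2615 to 3663 genes, and 6421 to 8519 and 4626 to 6478 probe sets. With the features of the full fit kept it gave 4 to 5 and 1 members, 6 to 7 and 1 of their probe sets, and 14 to 18 and 13 to 16 other pathway genes. Of the 35 called pathway genes outside the members, 8 lost the call in at least 1 alternative, and 7 of the 14 others gained one.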
